A study of Mus musculus with 16 samples.

Results

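Epithelial antimicrobial proteins are the secreted and membrane proteins with which an airway lining limits bacteria and fungi, and 10 of their genes were followed here across murine tracheal epithelial cells (MTECs). The 10 genes, Lcn2, Saa3, Ltf, Lyz2, S100a8, S100a9, Defb1, Pglyrp1, Olfm4 and Steap4, were chosen by symbol out of 49315 gene identifiers in a table of RNA-seq counts. MTECs were cultured from male (M) and female (F) mice on a C57BL/6J background that were littermates labelled WT or LMAN1 KO, and were kept naive or given house dust mite extract (HDM) overnight at 20 µg/ml. This gave 8 groups (M WT naive, M WT HDM, M KO naive, M KO HDM, F WT naive, F WT HDM, F KO naive and F KO HDM) with 2 libraries each, 16 in all. All cultures were grown on inserts coated with basement membrane made by fibroblasts and were differentiated at an air-liquid interface, and cells of several tracheas were pooled, so that a library is a pool of animals and not 1 mouse. No group carried an agent other than HDM. Expression is given as CPM, a gene's counts relative to the library total after scaling by edgeR's TMM method. A gene was called when its adjusted p was under 0.05 in edgeR's quasi-likelihood test (Benjamini-Hochberg, over 15993 genes), and every adjusted p below comes from that test unless another is named.

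Antimicrobial proteins act by a few routes. Lcn2 (lipocalin 2) binds the siderophores with which bacteria collect iron, Ltf (lactotransferrin) binds iron itself, and Steap4 is a membrane reductase of iron and copper. Lyz2 (lysozyme 2) cuts peptidoglycan of the bacterial wall, and Pglyrp1 recognizes it. S100a8 and S100a9 form calprotectin, which withholds zinc and manganese, Defb1 is a beta-defensin, Saa3 is an acute phase protein, and Olfm4 is a secreted glycoprotein known from gut crypts and neutrophil granules. In airway epithelium many of these genes are known targets of NF-kB, C/EBP and IL-17 signaling. Neutrophils and macrophages also make several of the proteins, so markers of those cells were measured alongside.

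The start regions of the 4 genes with the widest differences between groups are shown because the members moved apart, Ltf and Pglyrp1 in 1 direction and Lcn2 in another, with Steap4 set apart by sex. Each line runs 5′ to 3′ on the gene's own strand from 250 bases before to 50 bases after the RefSeq start in build GRCm38.p6. Capitals mark matches, on either strand, to GGGANNNNCC (NF-kB), TTGCNNAA (C/EBP) or TATAAA (the box of many core promoters). The Lcn2 region is chr2:32387690-32387989 (minus strand), that of Ltf chr9:111019042-111019341 (plus), that of Pglyrp1 chr7:18884440-18884739 (plus) and that of Steap4 chr5:7960222-7960521 (plus).
Lcn2: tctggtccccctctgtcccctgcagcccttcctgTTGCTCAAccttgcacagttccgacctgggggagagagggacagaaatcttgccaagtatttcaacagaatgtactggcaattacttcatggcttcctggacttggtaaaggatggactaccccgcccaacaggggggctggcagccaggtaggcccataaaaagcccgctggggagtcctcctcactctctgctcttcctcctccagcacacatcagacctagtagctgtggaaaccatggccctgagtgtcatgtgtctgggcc
Ltf: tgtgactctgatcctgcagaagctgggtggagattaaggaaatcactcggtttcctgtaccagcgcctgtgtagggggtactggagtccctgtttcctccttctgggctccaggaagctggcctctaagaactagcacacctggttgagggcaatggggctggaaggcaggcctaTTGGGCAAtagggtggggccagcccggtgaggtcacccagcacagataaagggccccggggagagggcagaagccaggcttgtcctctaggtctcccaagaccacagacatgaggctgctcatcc
Pglyrp1: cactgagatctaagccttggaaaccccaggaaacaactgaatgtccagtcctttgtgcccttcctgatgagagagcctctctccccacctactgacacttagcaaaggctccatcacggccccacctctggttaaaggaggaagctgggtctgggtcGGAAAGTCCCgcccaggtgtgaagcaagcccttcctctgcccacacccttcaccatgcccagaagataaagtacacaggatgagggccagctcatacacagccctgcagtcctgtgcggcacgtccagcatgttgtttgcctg
Steap4: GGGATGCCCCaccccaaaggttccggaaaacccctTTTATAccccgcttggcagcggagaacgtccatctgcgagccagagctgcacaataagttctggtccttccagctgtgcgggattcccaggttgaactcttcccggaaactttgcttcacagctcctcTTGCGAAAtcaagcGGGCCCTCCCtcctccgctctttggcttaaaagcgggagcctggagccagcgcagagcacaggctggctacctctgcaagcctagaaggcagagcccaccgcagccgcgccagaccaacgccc
Lcn2 and Ltf each held 1 C/EBP match, from -216 to -209 and from -75 to -68 relative to the start, and no NF-kB match. Pglyrp1 held 1 NF-kB match from -93 to -84. Steap4 held 2 NF-kB matches, 1 C/EBP match from -87 to -80 and 1 core box match, none of which overlapped. RefSeq start regions were found for 9 of the 10 members, and Defb1 had no entry. Of the 9, 3 held an NF-kB match (Pglyrp1, Olfm4 and Steap4), 5 a C/EBP match (Lcn2, Saa3, Ltf, S100a9 and Steap4) and 3 a core box match (S100a8, S100a9 and Steap4). The core box letters lay from -30 to -25 in S100a8 and from 1 to 6, after the start, in S100a9. In Steap4 they lay from -215 to -210 on the opposite strand. Among 32851 start regions of the same length, 20.7% held the NF-kB letters, 10.8% the C/EBP letters and 13.6% the core box letters. These matches describe the letters in this window and are not sites of binding.

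Total counts per library lay between 21860698 and 43442188, and 3 counts in a library, the floor used here, came to between 0.0674 and 0.142 CPM. The floor covers counting error only. Ddx3y was at 43.6 to 58.8 CPM in the 8 male libraries and at most 1.02 CPM in the 8 female libraries, and Xist showed the opposite pattern. Lman1, the targeted gene, was at 101 to 144 CPM in the 8 WT libraries. In libraries labelled KO it was at 14.2 and 63.4 CPM in M KO naive, 65.0 and 66.0 CPM in M KO HDM, 12.8 CPM in both F KO naive libraries and 66.6 and 78.1 CPM in F KO HDM. The Lman1 transcript was thus present at 63.4 to 78.1 CPM in 5 of the 8 libraries labelled KO. All 8 lay below the WT range, and whether the label holds for these 5 was not tested. Each genotype difference below is a difference between libraries labelled KO and WT. Lman1 was itself called higher with HDM in F KO (5.66-fold, adjusted p = 0.00744). KO minus WT response of Lman1 in females was also called (2.67 on the log2 scale, adjusted p = 0.0238). Naive and HDM libraries of F KO thus differ in the targeted transcript as well as in treatment. The part of Lman1 in the F KO responses below, and in differences that use them, was not tested. Summed CPM of 10 epithelial markers was 10004 to 18918 in the 16 libraries. The sum hides opposite shifts with HDM in F WT, where 4 of the 10 were called higher and 4 lower (20.6% and 22.4% of all genes). Krt8 and Krt18 were higher there (log2 fold change 1.39 and 1.37), and Ngfr and Trp63 were lower (-3.17 and -2.06). In F KO 2 were called higher and 0 lower (4.63% and 5.77% of all genes). The 2 libraries of a group differed by more than sampling noise in every group, with a chi-square per gene of 4.62 to 45.6.

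Neutrophil markers were at or near the floor. Mpo, Elane, Retnlg, Ngp, Cxcr2 and Camp had 3 or fewer counts in each of the 16 libraries and Prtn3 had at most 4. Ly6g had 1 to 9 counts (at most 0.282 CPM), Mmp8 0 to 8 and Csf3r 3 to 25 (at most 0.763 CPM). Itgam and Fcgr3, which macrophages also express, were above the floor in all 16 libraries, at up to 2.29 and 2.48 CPM, and the 12 neutrophil markers together summed to 2.33 to 5.84 CPM. The T and NK cell markers Cd3e, Cd3g and Nkg7 had 0 or 1 count in every library. Macrophage markers were present at a low level, with Adgre1 at 10.3 to 33.3 CPM and Csf1r at 10.5 to 31.4 CPM, while Cd14 reached 286 to 705 CPM and made up most of the macrophage sum. Secretory cell markers changed far more. Their sum was 3826 to 4841 CPM in F WT naive and 59.6 to 85.9 CPM in F WT HDM, and 2668 to 3748 CPM in F KO naive and 406 to 485 CPM in F KO HDM, against 2553 to 8341 CPM in the 8 male libraries. Reg3g, an antimicrobial lectin that is on this list too, made up most of the sum. Without it the sum was 660 to 815 CPM in F WT naive, 13.0 to 13.4 CPM in F WT HDM, 433 to 620 CPM in F KO naive and 95.4 to 119 CPM in F KO HDM. Scgb1a1, the classical club cell marker, stayed at or below 3.75 CPM throughout. In bulk RNA, fewer cells of a type and less RNA per cell cannot be told apart, and the part of secretory cell numbers in the member values below was not tested.

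Before any comparison, the members spanned several orders of magnitude. Per kilobase of annotated exon, Ltf led in 7 of the 8 groups, with 2034 ± 379 CPM per kb (SD, n = 2) in F WT naive and 2511 ± 244 in M WT naive. Lyz2, Pglyrp1 and Lcn2 followed in F WT naive at 144 ± 14.2, 109 ± 14.5 and 62.5 ± 18.9 CPM per kb. Neighbors in this order differed by more than their SDs, which do not measure uncertainty in the exon lengths. In CPM alone the F WT naive means of Lyz2, Pglyrp1 and Lcn2 were 190, 199 and 164. Their order per kb thus rests on the exon lengths used. Saa3, Olfm4, Steap4 and Defb1 lay far lower, between 6.51 and 1.93 CPM per kb, and Steap4 and Defb1 did not differ beyond their SDs. In F WT HDM the order changed, and Lcn2 stood first at 182 ± 105 CPM per kb and Ltf second at 144 ± 23.9, with SDs that overlap. In naive and male libraries Ltf alone took 0.557% to 1.18% of all counts, and in the 4 F HDM libraries 0.0424% to 0.177%.

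**Figure D1:**
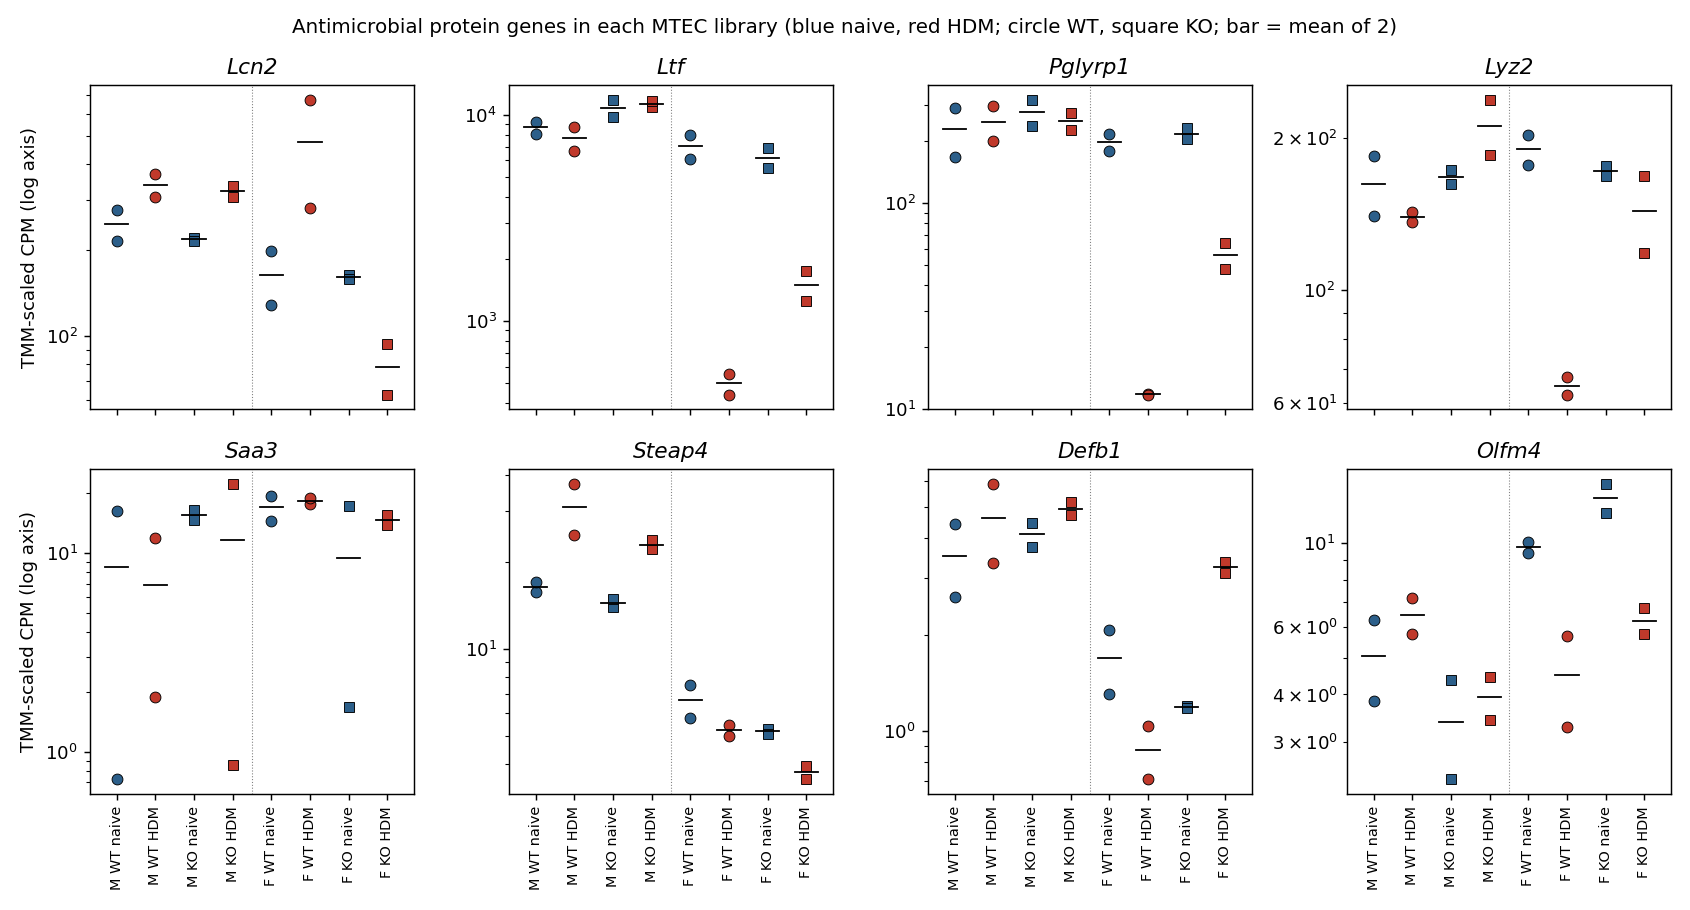
TMM-scaled CPM (log axis, a scale of its own in each panel) of the 8 members above the floor, for the 2 libraries of each of the 8 groups, with a bar at the mean. Ltf and Pglyrp1 sit low in the F HDM groups alone, Steap4 is higher in every male library than in every female one, and Saa3 is low in 4 libraries of 4 different groups.

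S100a8 and S100a9 were not expressed above the floor in any group. S100a8 had 0 to 3 counts and S100a9 0 or 1 count in every library, so no fold change is given. Neither passed the filter on low counts, and 8 of the 10 members were tested. S100a8 lies at chr3:90668978-90670035 and S100a9 at chr3:90692632-90695721 of GRCm38.

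HDM changed the female WT cultures most. Ltf, Pglyrp1, Lyz2 and Olfm4 fell and Lcn2 rose, so that 5 of the 8 tested members were called in F WT MTECs, where 43.1% of all tested genes were called. Of these members 1 was higher, against 20.6% of all genes, and 4 were lower, against 22.4%. The median log2 fold change of the 8 members was -1.02, beside -0.02 over all genes. In F KO MTECs 3 of the 8 were called (10.4% of all genes), with Defb1 higher (4.63%) and Ltf and Pglyrp1 lower (5.77%), and the median was -0.75.

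Ltf (chr9:111019271-111042767, plus strand) gave the largest difference in CPM. It was at 7942 and 6092 CPM in the F WT naive libraries and at 556 and 439 CPM in F WT HDM. F KO naive libraries had 6905 and 5483 CPM and F KO HDM libraries 1249 and 1740 CPM. The HDM libraries lay below the naive libraries in both genotypes without overlap, and the F WT HDM values were also below those of F KO HDM. The fold change was 14.1-fold lower with HDM in F WT (log2 fold change -3.82, standard error 0.24, adjusted p = 7.67e-07) and 4.15-fold lower in F KO (-2.05, standard error 0.23, adjusted p = 0.000546). The 8 male libraries stayed at 6699 to 11817 CPM (median 9474), and HDM minus naive was -0.17 in M WT and 0.07 in M KO (adjusted p = 0.947 and 0.954). The gap between the responses was called in all 3 tests that involve females. Male minus female response was 3.65 in WT and 2.12 in KO on the log2 scale (adjusted p = 2.32e-05 and 0.00757), and KO minus WT response in females was 1.77 (adjusted p = 0.00625). Without the 4 libraries low in Saa3 described below, the KO value of 2.12 became 1.89 and lost its call (adjusted p = 0.239, the highest over the alternatives).

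Pglyrp1 (chr7:18871331-18890459, plus strand) followed the course of Ltf. It was at 218 and 181 CPM in F WT naive and 11.8 and 11.7 CPM in F WT HDM. It was at 231 and 205 CPM in F KO naive and 63.8 and 47.8 CPM in F KO HDM. Naive and HDM libraries of females again did not overlap, and the F WT HDM pair was the lowest of all. HDM minus naive was -4.08 in F WT (standard error 0.31, adjusted p = 2.32e-06), or 16.9-fold lower, and -1.97 in F KO (standard error 0.27, adjusted p = 0.00155), or 3.91-fold lower. Male libraries ranged from 167 to 319 CPM, and their HDM responses were 0.12 in WT and -0.15 in KO (adjusted p = 0.977 and 0.913). Male minus female response was 4.20 in WT and 1.82 in KO (adjusted p = 3.73e-05 and 0.0237), and KO minus WT response in females was 2.11 (adjusted p = 0.00785). Without the 2 F WT libraries highest in fibroblast markers, named with Lcn2 below, the latter lost its call (2.24, adjusted p = 0.0572, the highest over the alternatives). The value of 1.82 lost its call, at 1.62 to 1.95 and adjusted p = 0.0598 to 0.12, when F KO HDM replicate 2, F KO naive replicate 1 or either M KO HDM library was left out, and at 1.58 (adjusted p = 0.22) without the 4 libraries low in Saa3 described below. Pglyrp3, a paralog, reached at most 14.9 CPM.

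Lyz2 (chr10:117277331-117282321, minus strand) fell in F WT cultures. Its F WT naive libraries had 203 and 177 CPM and the F WT HDM libraries 67.3 and 62.2 CPM. F KO naive libraries had 176 and 169 CPM and F KO HDM libraries 118 and 168 CPM, of which the higher nearly equaled the lower naive value and both lay above F WT HDM. HDM minus naive was -1.55 in F WT (standard error 0.18, adjusted p = 4.2e-05) and -0.27 in F KO (standard error 0.17, adjusted p = 0.364). The difference between these responses was called (1.29, adjusted p = 0.00898), as was that between male and female WT responses (1.34, adjusted p = 0.00258). The first lost its call without the 2 F WT libraries highest in fibroblast markers (1.33, adjusted p = 0.0628, the highest over the alternatives). Male libraries lay between 137 and 238 CPM. Macrophages are known for high Lyz2, and their markers summed to 507 to 611 CPM in F WT naive and 358 to 390 CPM in F WT HDM. In F KO the sums were 607 to 612 and 411 to 441 CPM, and Cd14 made up most of each sum. Of 11 tested macrophage markers, HDM called 3 lower in F WT, where 22.4% of all genes were called lower. They were Cd68 (-1.32), Csf1r (-0.74) and Cd14 (-0.59). In F KO 2 were called lower (5.77% of all genes), Cd68 (-0.97) and Cd14 (-0.47). The part of macrophages in the Lyz2 value was not tested. Lyz1, the neighboring lysozyme gene whose reads could be confused with Lyz2, was at 0.0832 to 3.03 CPM in the 16 libraries and had 2 counts in each F WT HDM library.

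Lcn2 (chr2:32384633-32388252, minus strand) went the other way in F WT cultures. F WT naive libraries had 199 and 129 CPM and F WT HDM libraries 281 and 672 CPM. F KO naive libraries had 164 and 158 CPM and F KO HDM libraries 62.6 and 94.0 CPM. HDM libraries thus lay above the naive ones in F WT and below them in F KO, without overlap in either. HDM minus naive was 1.54 in F WT (standard error 0.34, adjusted p = 0.00349), or 2.91-fold higher, and -1.04 in F KO (standard error 0.34, adjusted p = 0.0751), which was not called. The F KO value gained a call in 4 of 14 alternatives, DESeq2 among them (adjusted p = 0.0472 from its Wald test). The other 10 left it uncalled, and the value ran from -1.36 to -0.78 over the alternatives. The difference between these responses was -2.58 (standard error 0.48, adjusted p = 0.00822). In males HDM libraries had 306 and 370 CPM against 216 and 277 CPM in WT, and 307 and 335 CPM against 221 and 215 CPM in KO, with log2 fold changes of 0.46 and 0.56 that were not called (adjusted p = 0.936 and 0.781).

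The size of the Lcn2 change in F WT cultures rested on 1 library. Without F WT HDM replicate 2 the log2 fold change was 0.78 (adjusted p = 0.0462). That library also had the highest sum of 10 fibroblast markers, 791 CPM against 118 CPM in the other F WT HDM library, and F WT naive replicate 2 had 600 CPM against 45.3 CPM in replicate 1. Without those 2 libraries the Lcn2 value was 0.50 (adjusted p = 0.194, in a range of 3.56e-44 to 0.194 over the alternatives, whose lower end comes from a fit without a filter on low counts in which each gene's own spread did not enter), and KO minus WT response in females was -1.54 (adjusted p = 0.0382). Without F WT HDM replicate 2 alone the latter was -1.82 (adjusted p = 0.017), and without the 4 libraries low in Saa3 described below it was -2.55 and lost its call (adjusted p = 0.0692, the highest over the alternatives). Whether fibroblast RNA had a part in the Lcn2 level was not tested.

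Olfm4 (chr14:79984081-80023139, plus strand) was lower with HDM in female cultures. F WT naive libraries had 9.37 and 10.1 CPM against 3.29 and 5.68 CPM in F WT HDM, and F KO naive libraries 14.3 and 12.0 CPM against 5.77 and 6.73 CPM in F KO HDM. No naive female library overlapped an HDM one. HDM minus naive was -1.12 in F WT (adjusted p = 0.0158) and -1.07 in F KO (adjusted p = 0.054), and only the first was called. Without F WT HDM replicate 1 or F WT naive replicate 2 the first was -0.78 or -1.07 (adjusted p = 0.118 and 0.0618). The F KO value gained a call in 5 of 14 alternatives, and KO minus WT response in females was 0.05 (adjusted p = 0.955). Male libraries had 2.40 to 7.17 CPM. Male minus female response was called in WT (1.48, adjusted p = 0.0353) and lost its call in 8 of 18 alternatives. Its values ran from 1.01 to 1.92 over the 18. Of the 8 losses, 5 came from fits that left out 1 library (F WT HDM 1, either F WT naive, M WT HDM 2 or M WT naive 1), at 1.14 to 1.53. Olfm4 shares 153 annotated exon bases with Gm6999, a lincRNA on the same strand, so part of its count is uncertain.

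Defb1 (chr8:21776599-21795185, plus strand) was scarce, with 15 to 191 counts per library. F WT naive libraries had 2.07 and 1.30 CPM and F WT HDM libraries 1.04 and 0.71 CPM. F KO naive libraries had 1.20 and 1.18 CPM and F KO HDM libraries 3.11 and 3.37 CPM. HDM libraries were therefore higher than naive ones in F KO and lower in F WT. HDM minus naive was 1.44 in F KO (standard error 0.34, adjusted p = 0.022) and -0.92 in F WT (standard error 0.37, adjusted p = 0.065), and the difference between them was 2.36 (standard error 0.51, adjusted p = 0.0155). The F WT value was called with a replicate block by pool (-0.94, adjusted p = 0.00815) and without F WT naive replicate 2 (-1.24, adjusted p = 0.0426), in a range of adjusted p up to 0.343 over the alternatives. At these counts the calls were fragile. Leaving out any of the 4 F KO libraries took the F KO value to 1.39 to 1.50 (adjusted p = 0.0678 to 0.142), and leaving out F KO HDM 2, F KO naive 2, F WT HDM 2 or F WT naive 1 took the difference to 2.02 to 2.36 (adjusted p = 0.0553 to 0.0753). Without the 4 libraries low in Saa3 the F KO value was 1.46 (adjusted p = 0.137) and the difference 2.38 (adjusted p = 0.0515), and without the 2 libraries highest in fibroblast markers the difference was 2.44 (adjusted p = 0.0676), none of them called. Male libraries lay between 2.62 and 5.90 CPM.

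**Figure D2:**
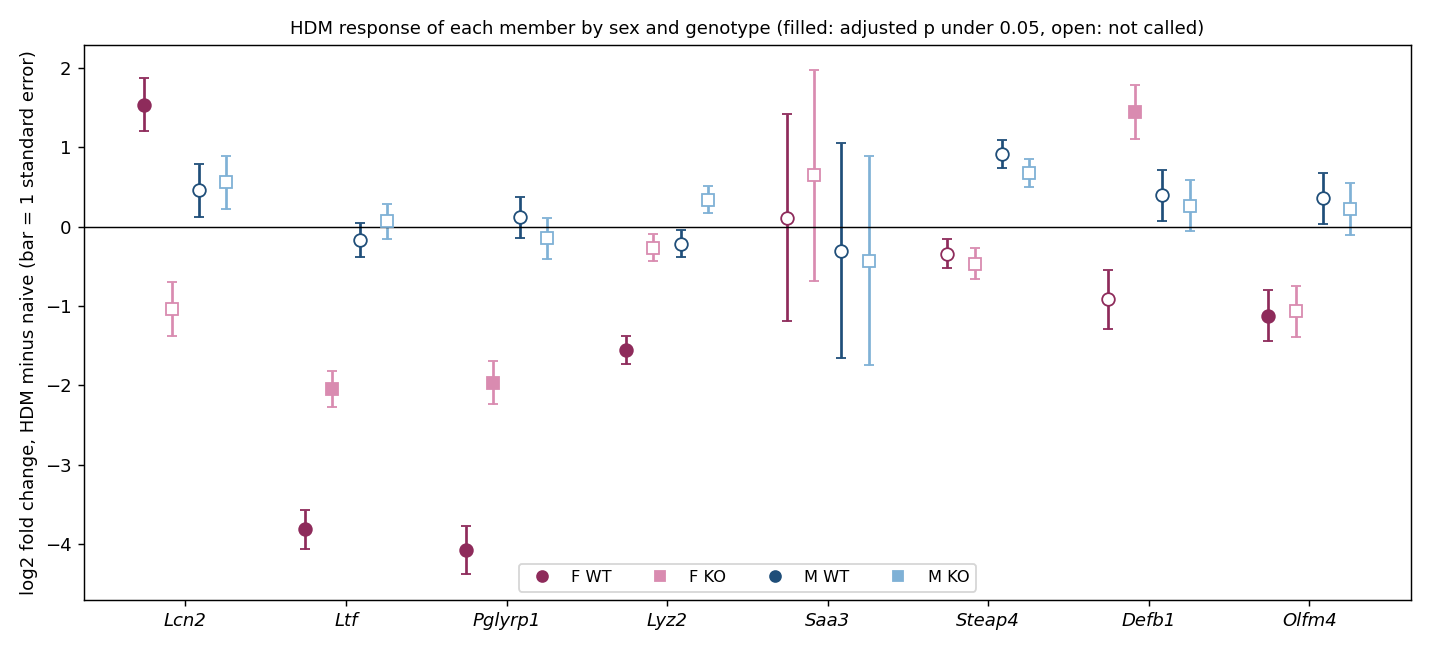
Log2 fold change of HDM minus naive for 8 members (x axis) in F WT, F KO, M WT and M KO MTECs, with 1 standard error, filled where called. Ltf and Pglyrp1 reach -3.82 and -4.08 in F WT, Lcn2 and Defb1 have opposite signs in F WT and F KO, and all male symbols are open.

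In male cultures no member was called for HDM in either genotype, and the same held for all genes, 0% in M WT and 0% in M KO. At an unadjusted p under 0.05, edgeR gave 665 genes (4.16%) in M WT and 857 (5.36%) in M KO, and DESeq2 called 1 gene in each, none of them a member. Steap4 was the member behind the only unadjusted p under 0.05 in each genotype. M WT HDM libraries had 24.7 and 37.3 CPM against 15.7 and 17.1 CPM in M WT naive, and M KO HDM libraries 22.1 and 23.8 CPM against 13.9 and 14.8 CPM. HDM libraries lay above naive ones in both genotypes, by 0.92 in WT and 0.67 in KO on the log2 scale (unadjusted p = 0.000226 and 0.0024 by edgeR, adjusted p = 0.936 and 0.781).

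Steap4 (chr5:7960457-7982213, plus strand) was the member that separated the sexes in every condition. Its 8 female libraries had 3.55 to 7.48 CPM (median 5.18) and its 8 male libraries 13.9 to 37.3 CPM (median 19.6), with no overlap. Female values were 7.48 and 5.78 CPM in F WT naive, 4.99 and 5.45 in F WT HDM, 5.27 and 5.08 in F KO naive and 3.55 and 3.94 in F KO HDM. Male minus female was 1.31 in WT naive, 1.47 in KO naive, 2.57 in WT HDM and 2.61 in KO HDM (adjusted p = 0.0193, 0.00892, 2.16e-06 and 2.32e-05). The HDM response was -0.34 in F WT and -0.47 in F KO, neither called, and male minus female response was called in WT (1.26, adjusted p = 0.00479) and KO (1.14, adjusted p = 0.0362).

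Some of these Steap4 calls depended on single libraries. In WT naive, leaving out any of the 4 libraries ended the call, at 1.13 to 1.51 (adjusted p = 0.0652 to 0.371). In KO naive, leaving out either F KO naive library or M KO naive replicate 2 did so, at 1.43 to 1.50 (adjusted p = 0.0553 to 0.205). The difference of the KO responses lost its call without any 1 of the 8 libraries except M KO naive replicate 2, at 1.08 to 1.22 (adjusted p = 0.0742 to 0.158). The male mean stayed above the female one in each of the naive fits.

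The naive sexes differed in few members. In WT naive MTECs Steap4 was the 1 member called, where 0.1% of all genes were called, and in KO naive MTECs Steap4 and Olfm4 were called (0.188%). Olfm4 was lower in males there, at 4.38 and 2.40 CPM against 14.3 and 12.0 CPM in females, which is -1.96 on the log2 scale (standard error 0.33, adjusted p = 0.0477). Every fit that left out 1 of those 4 libraries ended this call, at -2.45 to -1.58 (adjusted p = 0.054 to 0.364). Defb1 was 1.07 and 1.79 higher in naive males of WT and KO on the log2 scale, without a call (adjusted p = 0.262 and 0.0719).

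Under HDM the sexes stood far apart. In WT HDM MTECs 5 of 8 members were called, all higher in males, where 41.6% of genes were called (21.3% higher and 20.3% lower in males). They were Pglyrp1 (4.40, 21.2-fold), Ltf (3.95, 15.5-fold), Steap4 (2.57, 5.94-fold), Defb1 (2.39, 5.23-fold) and Lyz2 (1.11, 2.16-fold). In KO HDM MTECs 5 of 8 were called, again all higher in males, with 25.3% of genes called (12.9% higher and 12.4% lower). They were Ltf (2.92), Steap4 (2.61), Pglyrp1 (2.17), Lcn2 (2.04) and Lyz2 (0.56, adjusted p = 0.0322). Lyz2 lost that call without F KO HDM replicate 1 (0.34, adjusted p = 0.218) or M KO HDM replicate 2 (0.37, adjusted p = 0.263), in a range of adjusted p up to 0.275 over the alternatives. Lcn2 was called in KO and not in WT, where male minus female was -0.49 (adjusted p = 0.259).

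The sex difference of the HDM response itself was called for 5 of 8 members in WT (24.2% of genes) and for 3 of 8 in KO (3.56%), all with a higher value in males. These were Ltf, Pglyrp1, Lyz2, Olfm4 and Steap4 in WT and Ltf, Pglyrp1 and Steap4 in KO. Lcn2 had opposite signs in the 2 genotypes, -1.08 in WT and 1.60 in KO, neither called (adjusted p = 0.117 and 0.0897). The HDM responses and the sex differences share libraries, so they are not separate evidence. Without the 4 libraries low in Saa3 that are described below, 3 of 8 were called in WT and 0 of 8 in KO.

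Libraries labelled KO and WT differed in the members in 1 setting, females given HDM. There 5 of 8 members were called, where 29.2% of genes were called, with 4 members higher in KO (14.9% of genes) and 1 lower (14.3%). Lman1 itself was not called in this setting (-0.59, adjusted p = 0.331), with means of 72.4 CPM in KO and 109 CPM in WT. In F naive, where no gene was called, Lman1 was 9.61-fold lower in KO (-3.26, adjusted p = 0.403). The part of Lman1 in the member differences was not tested. Pglyrp1 was 4.73-fold higher in F KO HDM than in F WT HDM (log2 2.24, adjusted p = 0.000383), Defb1 3.67-fold (1.87, adjusted p = 0.00361), Ltf 3.00-fold (1.59, adjusted p = 0.000592) and Lyz2 2.22-fold (1.15, adjusted p = 0.00091). Lcn2 was 6.08-fold lower (-2.60, adjusted p = 0.000478), and without F WT HDM replicate 2 the value was -1.84 and still called (adjusted p of at most 0.0097 over the alternatives). Of the 10 fibroblast markers 5 were called lower in KO in the same comparison, with a median of -3.09 and sums of 98.7 to 110 CPM in F KO HDM against 118 to 791 CPM in F WT HDM, and their part in the Lcn2 value was not tested. With library size alone as scaling, 2928 of the 4747 genes called there were higher, against 2385 of 4669 with TMM.

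In the other 3 settings no member was called, and no gene passed the threshold in edgeR's quasi-likelihood test, 0% in F naive, 0% in M naive and 0% in M HDM. At an unadjusted p under 0.05 edgeR gave 0 members and 203 genes in F naive, 0 members and 867 genes in M naive, and 4 members and 2897 genes in M HDM. DESeq2 called 1, 0 and 508 genes there, and in M HDM 1 member, Lyz2 (0.60, adjusted p = 0.0286 from DESeq2's Wald test). Lyz2 in M HDM was at 185 and 238 CPM in KO and 137 and 143 CPM in WT. The difference of HDM responses between KO and WT was called for 5 of 8 members in females (11.2% of genes) and for 0 of 8 in males (0%). At an unadjusted p under 0.05, 1 member and 1388 genes passed in males, and DESeq2 called 0 genes. The 5 members were Lcn2, Ltf, Lyz2, Defb1 and Pglyrp1. With library size alone as scaling 1217 of 1817 genes called for this difference in females were higher, against 985 of 1798 with TMM.

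Saa3 (chr7:46711998-46715700, minus strand) varied widely between the 2 libraries of some groups. With that spread the tests could not settle whether groups differed. It was at 0.729 CPM in M WT naive replicate 1, 1.88 in M WT HDM replicate 2, 0.86 in M KO HDM replicate 2 and 1.68 in F KO naive replicate 1. The other 12 libraries had 11.8 to 22.3 CPM. No group held both low libraries, so the 2 libraries differed 6.28-fold in M WT HDM, 10.2-fold in F KO naive, 22.3-fold in M WT naive and 25.9-fold in M KO HDM. Saa3 was called in none of the 16 comparisons. Its HDM response was 0.11 in F WT, 0.65 in F KO, -0.31 in M WT and -0.43 in M KO, with standard errors of 1.31 to 1.36.

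The same 4 libraries were low in Il1b, the cytokine interleukin 1 beta, and in Marco, a macrophage scavenger receptor. Il1b was at 0 to 0.124 CPM in them and at 3.59 to 14.2 CPM in the other 12. Il1a, Il6 and Nos2, also on the lists, set the same 4 libraries apart. They were at most 0.265, 0.0855 and 0.0994 CPM there and at least 1.17, 0.221 and 0.584 CPM in the other 12. Marco was at 0.0309 to 0.142 CPM against 1.24 to 3.54 CPM. Other macrophage markers overlapped between these 4 libraries and the rest, with Adgre1 at 10.3 to 23.9 against 15.1 to 33.3 CPM, Csf1r at 13.8 to 31.4 against 10.5 to 29.7 CPM and Cd14 at 470 to 684 against 286 to 705 CPM. The part of any cell type in this pattern was not tested. Saa1, Saa2 and Saa4, the paralogs next to Saa3 in sequence, had 2 counts or fewer in every library.

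**Figure D3:**
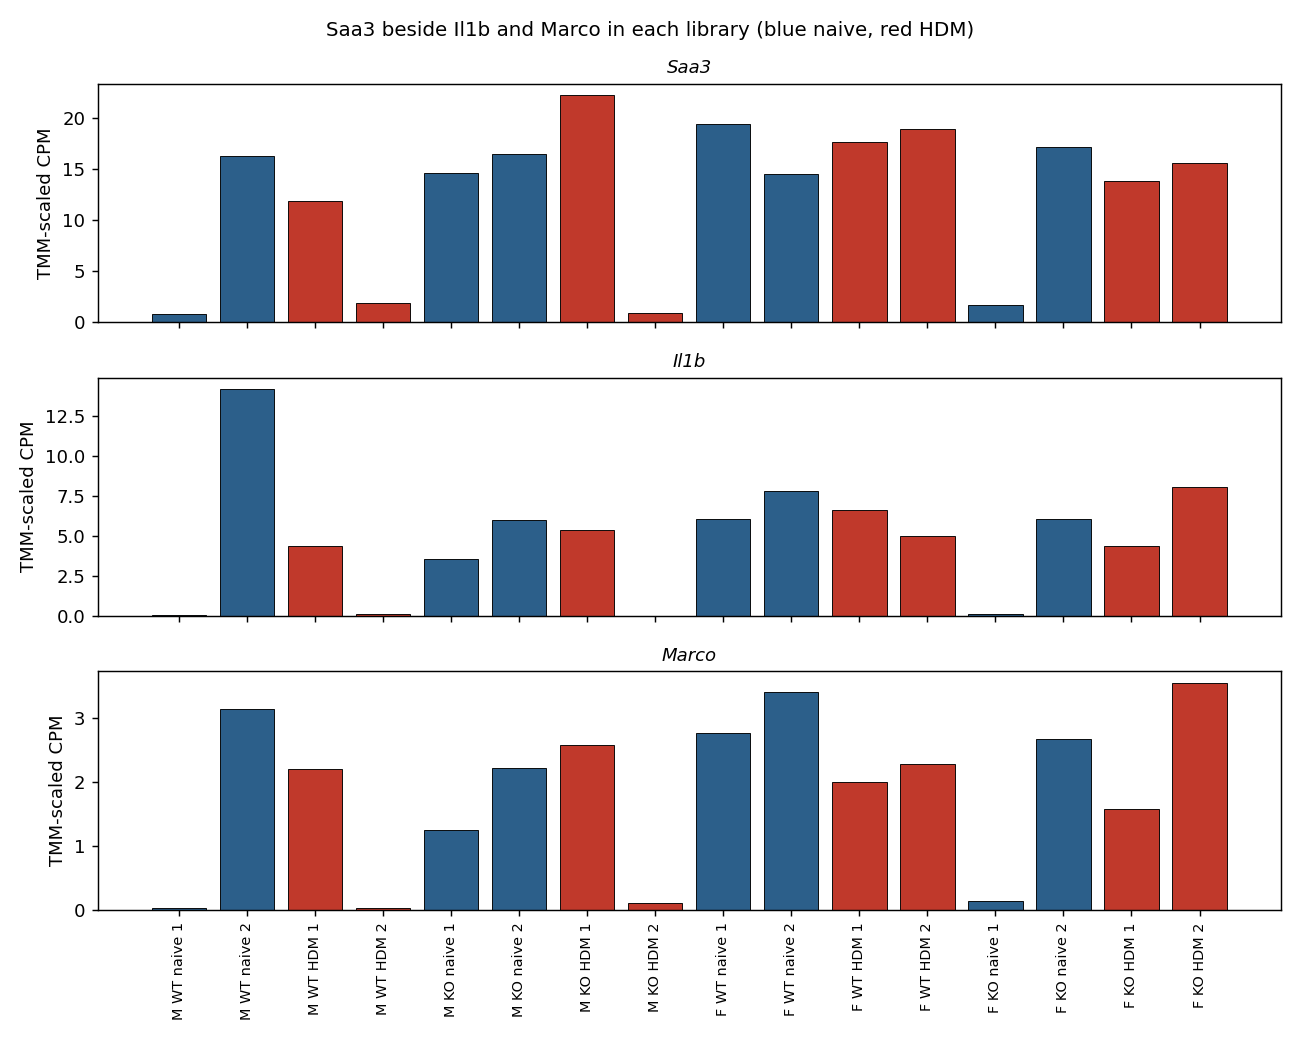
TMM-scaled CPM of Saa3, Il1b and Marco (a panel and scale each) in each of the 16 libraries, blue for naive and red for HDM. The bars of the same 4 libraries are near 0 in all 3 panels, with Saa3 at 0.729 to 1.88 CPM there and 11.8 to 22.3 CPM elsewhere.

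Other host defense proteins of the airway changed in both directions. Of 32 on the list, 25 were tested, and HDM called 16 in F WT (5 higher, 11 lower) and 5 in F KO (0 higher, 5 lower), where 43.1% and 10.4% of all genes were called, with medians of -0.48 and -0.29. Among the higher ones in F WT were complement C3 (139 and 122 to 251 and 339 CPM), the protease inhibitor Slpi (41.8 and 40.5 to 60.3 and 103 CPM) and the secreted ribonuclease Rnase4. The lower ones were led by Reg3g, a lectin against Gram-positive bacteria, which went from 4026 and 3165 to 46.6 and 72.4 CPM in F WT and from 3129 and 2235 to 365 and 310 CPM in F KO. Sftpd, the surfactant collectin, changed by -2.13 and -1.52 in F WT and F KO (adjusted p = 1.11e-06 and 0.000256). Pigr, the carrier of secretory antibodies, changed by -2.32 in F KO (adjusted p = 0.000904). In F WT Pigr went from 115 and 76.3 to 7.53 and 6.01 CPM. In males 0 of the 25 were called, with 2 in each genotype at an unadjusted p under 0.05, beside 4.16% and 5.36% of all genes.

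Of 19 tested regulators of antimicrobial genes, 12 were called in F WT (5 higher, 7 lower) and 5 in F KO (3 higher, 2 lower), beside 43.1% and 10.4% of all genes, with medians of -0.09 and -0.12. Tnfaip3, the inhibitor of NF-kB signaling known as A20, was 2.77 higher on the log2 scale in F WT (20.9 and 25.8 to 142 and 176 CPM). The NF-kB subunits Relb and Nfkb2 were higher in both genotypes, by 0.86 and 0.56 in F WT and by 0.47 and 0.35 in F KO. Tlr2 was 0.61 higher in F KO, and in F WT it went from 7.45 and 6.61 to 13.3 and 12.8 CPM. Elf3, an epithelial transcription factor, fell from 512 and 450 to 146 and 114 CPM in F WT and from 507 and 466 to 355 and 299 CPM in F KO. Stat3 went from 349 and 318 to 176 and 158 CPM in F WT, and Cebpa changed by -1.25 in F WT. Cebpd changed by -0.60 in F KO, and in F WT it went from 64.7 and 59.9 to 38.5 and 40.4 CPM. Male cultures had 0 of 19 called, and 6 in WT and 4 in KO at an unadjusted p under 0.05, beside 4.16% and 5.36% of all genes.

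Several of the cytokines known to induce the members were not measured above the floor. Il17a and Il22 had no count in any library, and Il17f and Ifng at most 1 count. Of the 20 listed cytokine and receptor genes, 17 were found by symbol and 12 were tested. Il36a, Il36b and Il36g were not found by symbol, so their levels were not read. HDM called 4 of the 12 in F WT (1 higher, 3 lower), a smaller share than the 43.1% of all genes, and 3 in F KO (0 higher, 3 lower), beside 10.4%, with medians of -0.05 and 0.12. The receptor subunits for IL-22 and IL-6 were among the lower ones. Il22ra1 went from 2.80 and 3.42 to 0.499 and 0.568 CPM and Il6ra from 7.77 and 7.64 to 2.66 and 2.79 CPM in F WT. Of the IL-17 receptor subunits in F WT, Il17rc was 0.43 higher and Il17re changed by -0.43, and Il10rb, Il6ra and Il17re changed by -0.40, -0.57 and -0.28 in F KO.

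**Figure D4:**
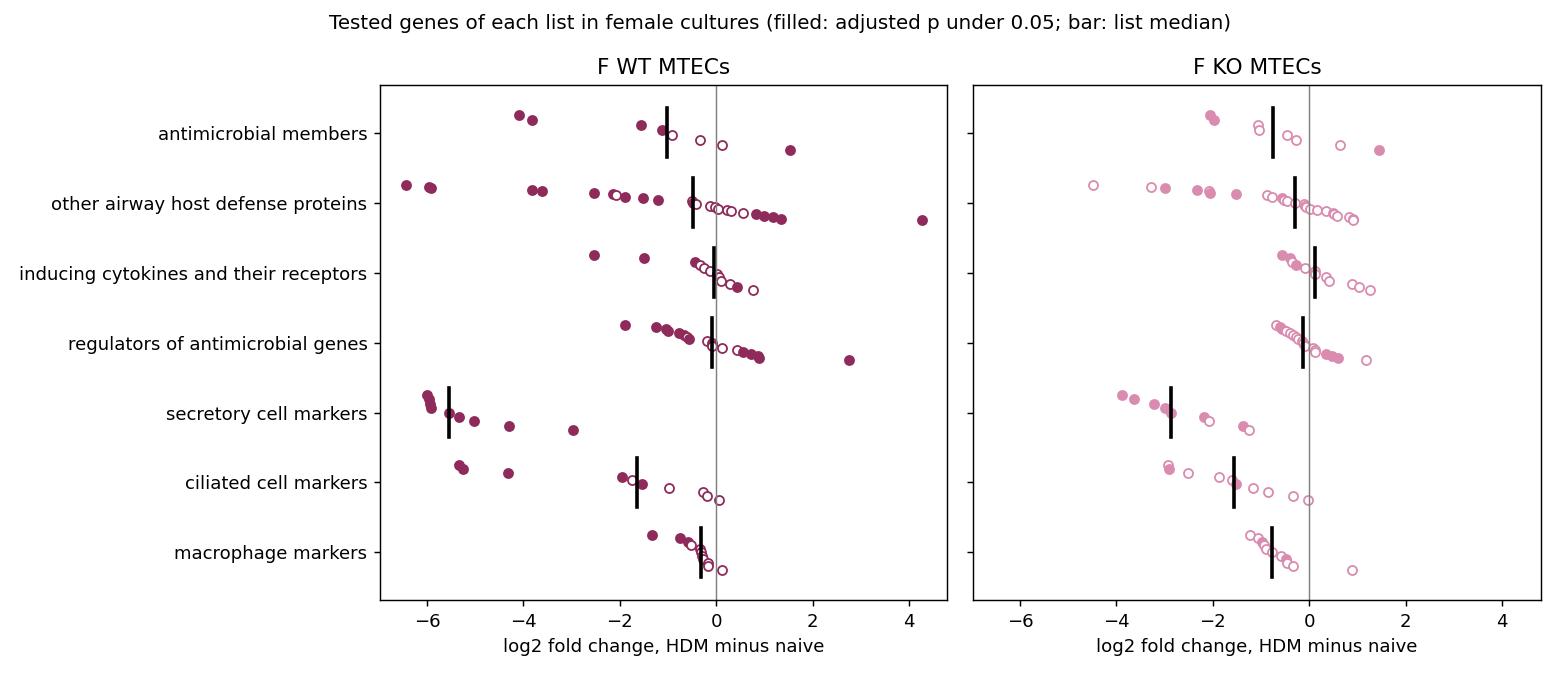
Log2 fold change of HDM minus naive (x axis) for every tested gene of 7 lists in F WT (left) and F KO (right) MTECs, 1 point a gene, filled where called, with a bar at each list's median. The members spread from -4.08 to 1.54 in F WT, and the secretory cell markers lie lower than the other lists, with medians of -5.54 and -2.86.

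The fall of Ltf and Pglyrp1 ran beside that of the secretory cell markers. All 9 tested secretory markers were called lower in F WT (22.4% of all genes) and 7 of 9 in F KO (5.77%). Bpifa1 and Reg3g are also among the other host defense proteins above, so the lists are not separate. Agr2, a protein of the secretory pathway in these cells, went from 76.5 and 78.8 to 1.50 and 1.85 CPM in F WT. In F KO it went from 81.7 and 76.8 to 8.88 and 8.20 CPM. Ciliated cell markers were called lower for 5 of 10 in F WT and 2 of 10 in F KO, beside 22.4% and 5.77% of all genes. Of the paralogs of the members, Trf (transferrin), which is related to Ltf, was called lower in both, at 46.6 and 32.8 to 5.04 and 17.5 CPM in F WT and 40.7 and 23.1 to 2.70 and 3.01 CPM in F KO. Steap1 was called lower in F KO (-1.31, adjusted p = 0.0449) and Steap3 higher in F WT (1.35, adjusted p = 0.000743), with Steap3 at 1.56 and 2.27 CPM before and 4.16 and 5.73 CPM after HDM. Male cultures had 0 of the 9 secretory markers called, also at an unadjusted p under 0.05.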

How the data were processed

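RNA from 16 MTEC cultures was purified with a column kit, enriched for mRNA, primed at random and amplified by PCR, per the labels. The authors deposited 1 table of raw read counts by Ensembl identifier, not normalized, and all 16 of its columns were used. The submitters' processing notes name Trimmomatic 0.36, STAR 2.5.2b, featureCounts, Subread 1.5.2 and DESeq2 and the build GRCm38, with no role or order. The annotation release and the strand setting are not given in the sources used here, so reads of overlapping genes could not be separated. Of 49315 identifiers, 48970 were paired with a symbol. Positions and exon lengths were taken from GENCODE M21 of GRCm38.

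Counts were fitted with edgeR 4.0.16 in R 4.3.3 as 8 group means over all 16 libraries, after filterByExpr by group (15993 genes) and TMM scaling. The common biological coefficient of variation was 0.142. Tests were two-sided, with Benjamini-Hochberg adjustment within each of 16 comparisons: 4 HDM responses, 4 sex differences, 4 genotype differences and 4 differences of responses. The files turned out as counts, the unit the design assumed. The labels call the 2 libraries of a group biological replicates, and p-values measure the spread between such pools.

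Alternatives were DESeq2 1.42.0, scaling by upper quartile or by library size alone, no filter or a minimum of 10 counts in each library, fits of the compared groups alone, a replicate block by number and by pool, and each library left out in turn, the lone library then being assumed to vary like the other groups. Fits without the 4 libraries low in Marco and Il1b and without the 2 libraries highest in fibroblast markers were chosen after seeing the data. All 10 members, Lman1, the paralogs and, of each other list, up to 3 called genes per direction with the smallest p in the F WT and F KO HDM responses were to be named; not every such marker gene is. Il1b, Marco, Il1a, Il6 and Nos2 were singled out, and single fibroblast and macrophage markers named, after their values were seen. The members and lists were chosen with earlier results of these data known. The fits were tested on simulated counts. Python 3.11.15 and matplotlib 3.10.9 drew the figures.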

Additional observations from a re-analysis of the deposited data

Results flagged for a closer look

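Each value here is a difference between 2 HDM responses, on the log2 scale, that was called in edgeR's quasi-likelihood test (Benjamini-Hochberg). Male minus female response in WT MTECs was 4.20 for Pglyrp1, 3.65 for Ltf, 1.48 for Olfm4, 1.34 for Lyz2 and 1.26 for Steap4. In KO MTECs it was 2.12 for Ltf, 1.82 for Pglyrp1 and 1.14 for Steap4. KO minus WT response in females was 2.36 for Defb1, 2.11 for Pglyrp1, 1.77 for Ltf, 1.29 for Lyz2 and -2.58 for Lcn2. Lcn2 was the 1 member among these whose response was lower in KO than in WT. Lman1 also differed between the naive and HDM libraries of F KO, and its part in the values that use them was not tested. The Defb1 value rests on 15 to 94 counts in the 8 female libraries.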

How the results depend on the processing

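The number of members called for HDM in F WT (5), for sex in WT HDM and KO HDM (5 each) and for genotype in F HDM (5) stayed within 1.5 times under every alternative. Without a filter on low counts (29397 genes) edgeR's estimate of the prior degrees of freedom was infinite, against 3.54 with the filter, so that each gene's own spread did not enter its p. That fit called 98 to 1896 genes in the 6 comparisons where none was called with the filter. In it, members called were 6 for HDM in F KO, 2 in M WT and 2 in M KO, 5 and 7 for sex in WT naive and KO naive, 1 for genotype in F naive, 1 in M naive and 4 in M HDM, 7 for the sex difference of the KO responses and 1 for the genotype difference of the male responses. DESeq2 gave 5 for HDM in F KO, 4 for sex in KO naive and 1 for genotype in M HDM. With only the compared libraries the counts were 5 for HDM in F KO, 0 for sex in WT naive and KO naive, and 5 for the KO responses between sexes. With each library left out, the counts ranged from 0 to 0 for sex in WT naive, from 0 to 1 in KO naive and from 1 to 3 for the KO responses between sexes. Without the 4 libraries low in Marco and Il1b there were 0 for sex in WT naive and KO naive, 3 and 0 for the WT and KO responses between sexes, and 3 for the genotype difference of the female responses. Without the 2 libraries highest in fibroblast markers the counts were 0 and 1 for sex in WT naive and KO naive and 2 for the genotype difference of the female responses. The cause of these shifts was not tested, beyond the fewer libraries in some fits.

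Same-numbered libraries deviated together by -0.16 to 0.48 across the 12 pairs of groups (correlation over genes), and with 2 pairs a comparison the numbers share only a number. The replicate block by number changed no count of members by over 1.5 times, and with the replicate block by pool the genes called for the sex difference of the KO responses went from 569 to 1062. Of 907 values of single members under an alternative, 804 kept their side of the threshold, 63 lost a call, 40 gained one (18 of them in the fit without a filter) and none turned direction while called. Scaling by library size alone put the median log2 fold change of all genes in F WT at -0.10, against -0.02 with TMM. Having 2 libraries per group and the 15 to 191 counts of Defb1 limit what could be detected.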
